A study of Homo sapiens with 5 samples.

Results

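Genome folding was compared directly between RMG1 cells that lacked ARID1A and RMG1 cells with lowered CAPH2, using 4 of the 5 in situ Hi-C libraries of the study. RMG1 cells were derived from a clear cell carcinoma of the human ovary and are an established line. The ARID1A KO group had 2 libraries from cells edited with CRISPR, in which CAPH2 was wild type. The CAPH2 KD group had 2 libraries from cells with a hairpin RNA against CAPH2, in which ARID1A was wild type. The remaining library, from cells with a control hairpin and both genes wild type, was used to set the compartments and is given as a reference value. The members were set by the labels and replicate numbers and not by a measured value, but earlier results of these data were known. The control shares the hairpin method with the KD and not with the KO. The perturbed gene, the way it was perturbed (CRISPR or hairpin) and the cells that were grown out cannot be told apart in this design. Whether replicates are separate cultures or clones is not stated in the labels, and p-values therefore reflect nothing beyond the library-to-library spread, which may be technical.

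ARID1A is a subunit of the BAF complex, which moves nucleosomes with energy from ATP. CAPH2 (gene symbol NCAPH2) belongs to condensin II, which loops and shortens chromosomes and acts in keeping them apart as territories. In Hi-C maps, active regions (compartment A) tend to touch other active regions and inactive regions (compartment B) other inactive ones, and contacts within a chromosome become rarer with distance.

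The deposited values are balanced contact signal between bins of 1 Mb, so that each bin carries the same total, and they were used only as shares or ratios within a library. Of 2667 bins measured in every library on chromosomes 1 to 22, 2635 were used. The whole contacts behind the balanced values could be recovered. They came to 30.6 and 31.6 megacontacts in the KO libraries, 54.1 and 82.5 megacontacts in the KD libraries and 46.5 megacontacts for the control. Trans bin pairs (bins on different chromosomes) without any contact made up 22.2% and 22.6% in the KO and 7.22% and 2.94% in the KD. Bins of this width cannot show the state of ARID1A or CAPH2 itself.

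The KO libraries stood apart from each other, and the KD libraries did not. In 21 of 272 windows of 10 Mb, the recovered contacts of the KO libraries, each set against its own median bin, differed by at least 0.3 on the log2 scale, and no window of the KD libraries differed by more than 0.098. Longer stretches lay on chromosome 1 from 0 to 30 Mb, chromosome 10 from 100 to 140 Mb, chromosome 11 from 90 to 120 Mb, chromosome 13 from 50 to 110 Mb and chromosome 14 from 70 to 90 Mb, all with fewer contacts in KO library 1. The SD between replicates of the balanced measures was also larger in the KO, for instance 0.0880 against 0.00857 (log2) over chromosome pairs. The KO libraries shared a different yield from the KD. Chromosome 18 held 1.34% and 1.29% of recovered contacts in the KO and 1.98% and 1.97% in the KD, while chromosome 19 held 2.53% and 2.36% against 1.63% and 1.70%. Balancing evens out yield between bins. Values in recovered, unbalanced contacts are given beside the main results.

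Contacts between the 2 arms of a chromosome were lower in the ARID1A KO on every chromosome on which both arms were measured. On chromosome 11 the between-arm signal was 7.29% and 7.57% of the within-chromosome (cis) signal in the KO libraries and 9.73% and 9.61% in the KD libraries, with 9.15% in the control. Both KO libraries lay well below both KD libraries, and the control lay between the groups. On chromosome 7 it was 7.37% and 7.52% in the KO against 9.41% and 9.44% in the KD, and on chromosome 8 it was 7.44% and 7.27% against 9.12% and 9.15%. The lowest value in the KO was that of chromosome 18, at 5.58% and 4.49%, against 6.69% and 6.72% in the KD. Over the 17 chromosomes the median was 7.29% and 7.15% in the KO and 8.53% and 8.58% in the KD. The groups did not overlap on any of the 17 chromosomes. The control lay between the groups on 12 chromosomes and above both KD libraries on 5, which were chromosomes 16 to 20.

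**Figure D1:**
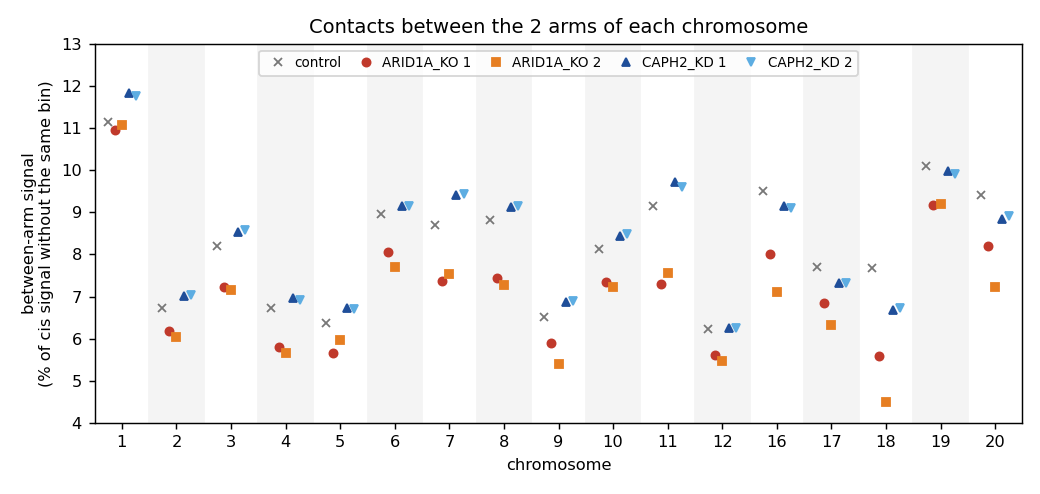
Signal between the 2 arms of each chromosome as a percent of its cis signal without the same bin (vertical axis, starting at 4%), with 1 point per library for 17 chromosomes (horizontal axis). Both ARID1A KO points lie below both CAPH2 KD points on every chromosome shown.

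In log2 of between-arm over within-arm signal, the fall passed on 17 of 17 chromosomes (100% of those tested; limma, Benjamini-Hochberg adjusted p under 0.05). Chromosome 11 fell by 0.42 (SE 0.029, limma adjusted p = 0.000934), which is 0.750 times the KD level. Chromosome 7 fell by 0.37 (SE 0.022), chromosome 8 by 0.34 (SE 0.023) and chromosome 3 by 0.27 (SE 0.020), all with the same limma adjusted p. Next by p-value, not by size, were chromosomes 4, 10, 2 and 12, with falls of 0.29, 0.23, 0.22 and 0.19. The largest fall was on chromosome 18, at 0.45, with a wide SE of 0.12 (limma adjusted p = 0.0263). The smallest fall was on chromosome 1, at 0.11 (SE 0.020, limma adjusted p = 0.00706). In recovered contacts 10 of the 17 chromosomes passed, all lower, and chromosomes 17 and 19 turned to small positive differences of 0.03 and 0.01, which did not pass. The count was 6 without KD library 1 and 5 without KD library 2, where the spread came from the KO pair alone. With a KO library left out the spread comes from the KD pair alone, and the count stayed at 17.

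Since bins on different arms lie farther apart, between-arm contacts were also set against within-arm contacts at the same distance, a comparison added after the first values were seen. At matched distance 11 of 17 chromosomes passed, all lower, with a median difference of -0.11. Chromosome 18 fell by 0.30 (SE 0.081, limma adjusted p = 0.0412), chromosome 20 fell by 0.22 (SE 0.014, limma adjusted p = 0.00371), chromosome 16 by 0.17 and chromosome 8 by 0.16. Chromosomes 1, 2, 9 and 19 overlapped between the groups, with differences of -0.02, 0.00, -0.01 and 0.02. In recovered contacts at matched distance 9 passed, with a difference of -0.27 on chromosome 20 (limma adjusted p = 0.00179). There chromosome 11 turned from -0.09 to 0.06 and lost its call, and chromosome 18 lost its call too (limma adjusted p = 0.139). Chromosomes 2 and 19 were at 0.04 and 0.08, which did not pass.

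The share of cis signal at long distance was lower in the KO than in the KD. Between 50 and 100 Mb it was 4.20% and 3.95% in the KO libraries against 4.78% and 4.79% in the KD libraries, with 4.66% in the control. At 100 Mb and over it was 1.95% and 2.10% against 2.37% and 2.37%. The control, at 2.07%, lay between the KO libraries there. At 20 to 50 Mb the share was 11.1% and 10.6% against 11.5% and 11.5%. In that class the control, at 12.5%, lay above both groups. In each of these classes both KO libraries lay below both KD libraries. Between 5 and 10 Mb the order was the other way, with 9.49% and 8.94% in the KO and 8.87% and 8.88% in the KD, and KO library 2 lay only just above the KD. In recovered contacts this class overlapped, at 9.40% and 8.89% against 8.90% and 8.90%. With 2 libraries against 2 an exact two-sided permutation test cannot reach the threshold of 0.05, so these shares carry no test.

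**Figure D2:**
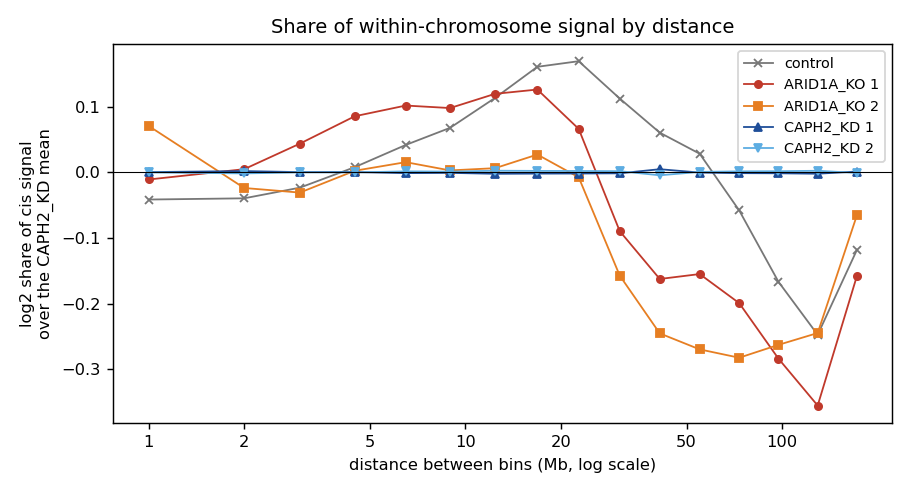
Log2 of each library's share of cis signal over the mean of the CAPH2 KD libraries (vertical axis) by distance between bins in Mb (log scale), with 1 line per library. Both ARID1A KO lines drop below the KD from 27 Mb on and reach -0.36 and -0.28 at their lowest, while the KD lines stay together.

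By chromosome, 15 of 142 combinations of chromosome and distance class were called, all lower in the KO (10.6% of those tested, with 0% called higher; limma, adjusted p under 0.05). The KO libraries lay below both KD libraries in 34.5% of the combinations and above both in 21.8%. Called combinations were 8 of 12 chromosomes at 100 Mb and over, 6 of 20 at 50 to 100 Mb and 1 of 22 at 20 to 50 Mb. All 12 chromosomes with that distance were lower in both KO libraries at 100 Mb and over (median difference -0.27), as were 18 of 20 at 50 to 100 Mb (median -0.19). At 5 to 10 Mb 13 of 22 were higher in both KO libraries (median 0.06), and none of these passed.

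Chromosome 11 had the largest differences. At 100 Mb and over it held 0.650% and 0.841% of its cis signal in the KO libraries and 1.23% and 1.23% in the KD libraries, a difference of -0.73 in log2 (SE 0.13, limma adjusted p = 0.0474). At 50 to 100 Mb it held 4.20% and 4.72% against 6.07% and 5.98%, a difference of -0.44 (SE 0.066, limma adjusted p = 0.0346). The groups did not overlap in either class, and the KO libraries differed from each other on this chromosome, which carries one of the stretches of unequal yield. Chromosomes without such a stretch were called as well. Chromosome 8 held 4.54% and 4.63% against 5.55% and 5.62% at 50 to 100 Mb (difference -0.28, SE 0.032, limma adjusted p = 0.0326), and chromosomes 3, 4, 5, 6 and 9 were lower by 0.28, 0.23, 0.27, 0.28 and 0.28 at 100 Mb and over. Chromosomes 10 and 12 do hold windows of unequal yield between the KO libraries. In the same class they were lower by 0.26 and 0.23 than in the KD. The control had 0.624% and 0.520% there, below both KO libraries (0.657% and 0.631%, then 0.536% and 0.534%). In this class it lay between the KO libraries on chromosome 4 and above both on chromosomes 3, 5, 6, 9 and 11. On the small chromosome 19, 8.42% and 8.28% of cis signal lay at 20 to 50 Mb in the KO against 9.49% and 9.41% in the KD (difference -0.18, limma adjusted p = 0.0444). Chromosome 19 also holds a window of unequal yield between the KO libraries, from 0 to 10 Mb.

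In recovered contacts no combination passed (lowest limma adjusted p = 0.105), although 9 of 12 chromosomes remained lower in both KO libraries at 100 Mb and over and 13 of 20 at 50 to 100 Mb. There chromosome 12 turned at 100 Mb and over, to 0.10. When signal under 2 Mb, whose share differed between the KO libraries (44.2% and 46.7%), was left out of the totals, 48 combinations passed, 26 lower and 22 higher, the higher ones all between 5 and 20 Mb. The count was 120 without KO library 1 (39 higher and 81 lower) and 123 without KO library 2 (66 higher and 57 lower). It was 3, all lower, without KD library 1 or KD library 2.

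Compartments had less contrast in the ARID1A KO. Compartment strength, the observed over expected signal of like bin pairs (A-A and B-B) over that of unlike pairs (A-B), was taken over the 20% of bins at either end of the compartment eigenvector, ranked in the control. Within chromosomes it was 2.84 and 3.21 in the KO libraries, 3.61 and 3.75 in the KD libraries and 3.48 in the control. The 2 groups did not overlap, and the control lay between them. Unlike pairs had an A-B value of 0.502 and 0.457 in the KO against 0.416 and 0.405 in the KD. The B-B value was 1.51 and 1.58 against 1.64 and 1.68, and the A-A value 1.34 and 1.36 against 1.36 and 1.36. A-B contacts were higher in both KO libraries on 22 of 22 chromosomes. B-B contacts were lower in both on 13 chromosomes and higher on 0, and A-A contacts were lower in both on 9 and higher on 4. The difference in A-B contacts was present at short and long range, at 0.542 and 0.470 against 0.412 and 0.392 at 1 to 20 Mb and at 0.514 and 0.478 against 0.441 and 0.432 at 50 Mb and over.

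By chromosome, 18 of 22 passed, all lower in the KO (81.8% of those tested; limma, adjusted p under 0.05), and on 21 chromosomes (95.5%) both KO libraries lay below both KD libraries. The largest differences were on the small chromosomes 21, 22 and 19. Chromosomes 13, 15, 18 and 20 had falls of 0.21, 0.23, 0.10 and 0.21, smaller than the median fall of 0.28. Chromosome 21 had a strength of 2.00 and 2.19 in the KO libraries and 3.42 and 3.65 in the KD libraries, a fall of 0.75 in log2 (SE 0.099, limma adjusted p = 3.50e-08). The KO values did not come near those of the KD or of the control (3.62). Chromosome 22 had 2.43 and 2.23 against 3.68 and 3.96 (fall of 0.71, limma adjusted p = 7.40e-08), and chromosome 19 had 3.02 and 3.39 against 4.95 and 5.26 (fall of 0.67, limma adjusted p = 1.74e-07). Chromosomes 17, 10, 16, 11 and 9 followed with falls of 0.53, 0.45, 0.44, 0.44 and 0.38. Chromosomes 4, 7, 8 and 18 did not pass, and chromosome 18, at 2.28 and 2.64 against 2.57 and 2.69, was the one on which the groups overlapped. Limma gave all chromosomes 1 common spread here, so the SE is the same throughout.

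**Figure D3:**
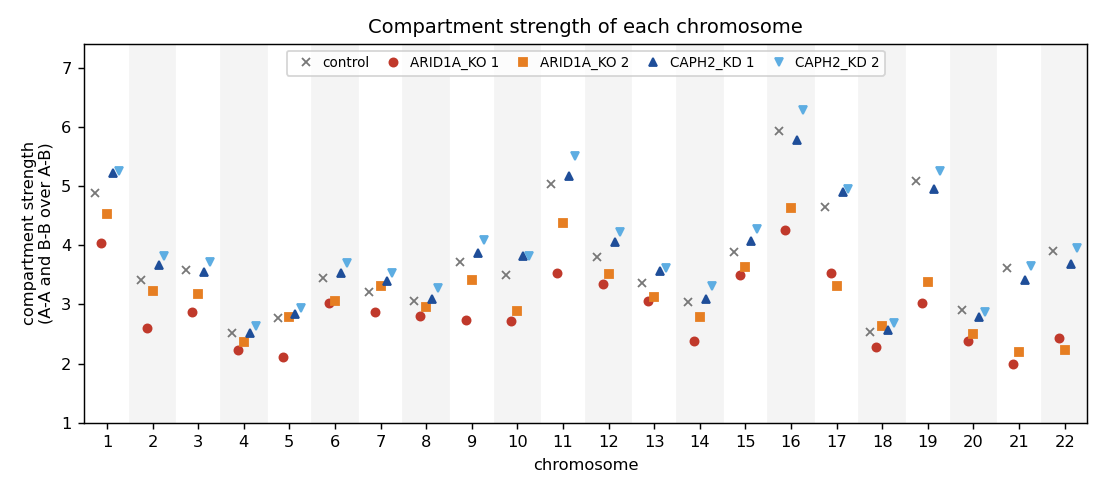
Compartment strength (vertical axis, starting at 1; like over unlike bin pairs) of each chromosome (horizontal axis), with 1 point per library. Both ARID1A KO points lie below both CAPH2 KD points except on chromosome 18, and the gap is widest on chromosomes 21, 22 and 19.

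The unlike contacts of these small chromosomes show the same order. On chromosome 21 the A-B value was 0.569 and 0.510 in the KO and 0.364 and 0.342 in the KD, while A-A values overlapped, at 0.828 and 0.772 against 0.795 and 0.791. In recovered contacts 18 chromosomes passed as well. There A-A pairs were at 1.65 and 1.68 in the KO against 1.19 and 1.23 in the KD, so that their order turned, and B-B pairs were at 1.11 and 1.14 against 1.72 and 1.70. A-B pairs were at 0.486 and 0.439 against 0.406 and 0.395. With each library's own eigenvector both KO libraries lay below both KD libraries on 17 of 22 chromosomes and above both on 1. The differences ran from -0.73 to 0.11, and 12 chromosomes passed, all lower. The count was 5 without KO library 1, 21 without KO library 2, 9 without KD library 1 and 5 without KD library 2. Between chromosomes the strength was 1.91 and 2.03 in the KO and 2.37 and 2.39 in the KD, and in recovered contacts 2.11 and 2.23 against 2.30 and 2.33.

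The compartment of single bins did not pass the test. None of 2635 bins had an adjusted p under 0.05 for the eigenvector (0% of those tested; limma), and 240 had an unadjusted p under 0.05. Both KO libraries lay below both KD libraries in 26.4% of bins and above both in 22%. In simulated data every bin was given the pooled spread of its group, and none of 100 bins shifted by 1 SD was called. Shifts of that size were thus not detectable at the pooled spread. The spread of single bins differed from it, which the simulation did not cover. The sign was the same within each group and opposite between the groups in 58 bins (2.20%), of which 39 were A in the KO and B in the KD and 19 the reverse. Between replicates the sign differed in 339 bins for the KO and in 39 for the KD. On chromosome 5 the leading eigenvector of KO library 1 was unrelated to the control (absolute correlation 0.00781 across bins), and with the best of the first 3 eigenvectors 56 bins had opposite signs.

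First by p-value was the bin chr3:139000001-140000000 (hg19), with an eigenvector of -0.70 and -0.74 in the KO libraries and 0.35 and 0.28 in the KD libraries, in units of the SD over the chromosome. It read as B in both KO libraries and as A in both KD libraries, with a control value of -0.00102 at the boundary (difference -1.04, limma adjusted p = 0.393). The next 2, chr17:2000001-3000000 and chr10:113000001-114000000, differed by -0.62 and -0.68 with the same adjusted p and kept their sign in every library. From recovered contacts 284 bins passed. Without KO library 1 the count was 774, without KO library 2 1385, and without either KD library 0.

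Contacts between chromosomes made up a smaller part of the balanced signal in the KO than in the KD. Without the same bin, 40.8% and 42.8% of signal was trans in the KO libraries, 44.0% and 44.1% in the KD libraries and 41.4% in the control. Both KO libraries were below the KD, and the KD libraries were nearly equal. The control lay between the KO libraries and below both KD libraries. In recovered contacts the groups overlapped, at 42.5% and 44.7% in the KO against 43.5% and 43.8% in the KD. Signal within the same bin was 47.7% and 51.5% of the total in the KO and 45.6% and 46.3% in the KD, and was left out of all totals.

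In the balanced signal 20 of 22 chromosomes (90.9%) had a lower trans share in both KO libraries than in both KD libraries and 1 (4.55%), chromosome 19, had a higher one. The fall of the KO against the KD passed on 4 of 22 (18.2%; limma, adjusted p under 0.05). Chromosome 18, which is gene-poor, had 33.1% and 34.4% trans signal in the KO libraries and 40.3% and 40.4% in the KD libraries, with 36.7% in the control. The KO values lay far below those of the KD (log2 of trans over cis, difference -0.41, SE 0.078, limma adjusted p = 1.09e-04). This SE, too, is common to all chromosomes. Chromosome 13 had 40.6% and 45.0% against 47.6% and 47.5% (difference -0.28), chromosome 14 had 43.3% and 48.4% against 50.01% and 50.2% (-0.25), and chromosome 10 had 40.8% and 45.0% against 46.5% and 46.6% (-0.22, limma adjusted p = 0.0483). On the last 3 the low value was that of KO library 1, and each holds a stretch where that library had fewer recovered contacts. The SD between the KO libraries (log2) was 0.18, 0.21 and 0.17 on chromosomes 13, 14 and 10, wider than the common SE, and 0.057 on chromosome 18. The control had 45.2% on chromosome 13, above both KO libraries. On chromosomes 14 and 10 it had 46.8% and 43.6%, between the KO libraries. On chromosomes 2, 4, 6, 8, 12, 16, 17, 19, 21 and 22 the control lay below both KO libraries. On chromosome 6 it had 36.3%, against 37.2% and 38.5% in the KO and 38.9% and 39.0% in the KD. It lay above both KO libraries on chromosomes 13 and 18 only, and below both KD libraries on every chromosome.

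**Figure D4:**
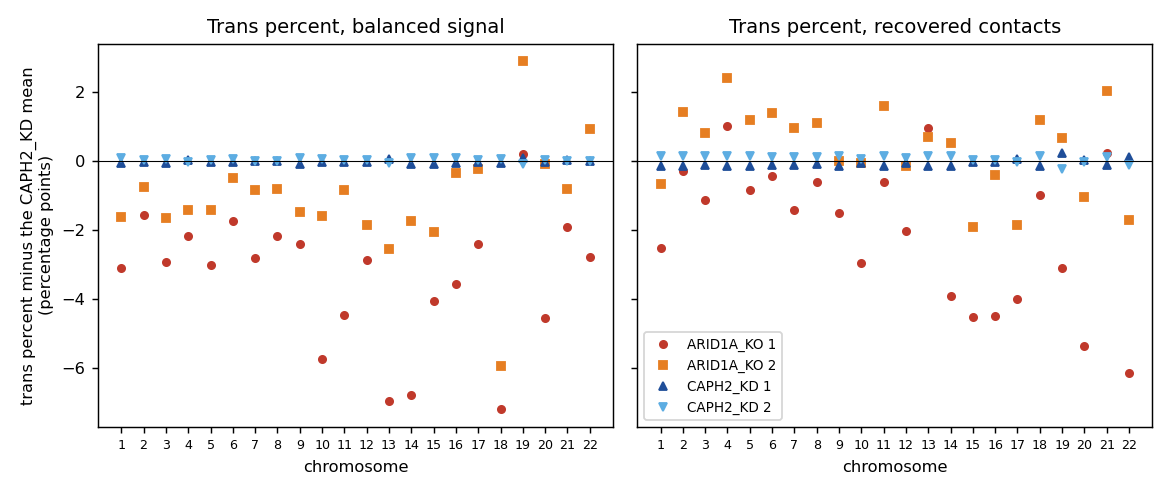
Trans percent of each chromosome without the same bin, minus the mean of the CAPH2 KD libraries (percentage points), in the balanced signal (left) and in recovered contacts (right), with 1 point per library. In the balanced signal both ARID1A KO libraries are lowest on chromosome 18, and in recovered contacts that chromosome is on both sides of 0.

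None of these falls passed in recovered contacts. Chromosome 18 was then at 44.1% and 46.2% in the KO and 44.9% and 45.2% in the KD, with the KO libraries on both sides (difference 0.01), and chromosome 13 turned, with 43.8% and 43.5% against 42.7% and 42.9% (0.05). The count in the balanced signal was 21 without KO library 1 (2 of them higher), 22 without KO library 2 (1 of them higher), and 0 without KD library 1 or KD library 2. Centred on each library's median, 2 chromosomes passed, both higher, and chromosome 10 turned to 0.03.

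For pairs of chromosomes, signal was set against the product of the totals of both chromosomes. Over all pairs of the 22 chromosomes, 30 were called lower in the KO (13% of those tested) and 4 higher (1.73%; limma, adjusted p under 0.05). Both KO libraries lay below both KD libraries in 153 pairs (66.2%) and above both in 26 (11.3%), and the median difference over all pairs was -0.07. Pairs with chromosome 18 made up 17 of the 30 called lower. All 21 pairs of chromosome 18 had a negative difference (median -0.28), and 20 did not overlap between the groups. Chromosomes 14 and 18 had an observed over expected value of 0.396 and 0.414 in the KO libraries and 0.555 and 0.560 in the KD libraries, a fall of 0.46 in log2 (SE 0.030, limma adjusted p = 0.00786). Chromosomes 18 and 20 had 0.498 and 0.478 against 0.645 and 0.646 (fall of 0.40), and chromosomes 18 and 22 had 0.479 and 0.476 against 0.585 and 0.587 (fall of 0.30), both with the same adjusted p. Chromosomes 12 and 18 and chromosomes 10 and 18 were lower by 0.28 and 0.29.

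Chromosome 18 also had the lower share of recovered contacts given above, and the part of yield in its falls was not tested. In recovered contacts 4 of the 21 pairs were called lower, those with chromosomes 14, 16, 20 and 22, and the median over the 21 was -0.03. With the expectation taken from trans totals alone none of the 21 was called (median 0.01), and the pair of 10 and 18 turned to 0.02. The other gene-poor chromosomes, 4 and 13, gave 2 calls lower and 1 higher in 39 pairs (median -0.10), with 30 pairs below and 5 above in both KO libraries. In recovered contacts the direction turned, with a median of 0.04, 5 pairs below and 23 above.

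Contacts among the small chromosomes were lower in the KO. Of the 10 pairs within the gene-rich chromosomes 16, 17, 19, 20 and 22, 6 were called lower and 9 did not overlap, with a median of -0.16. Chromosomes 16 and 22 had an observed over expected value of 0.931 and 0.937 in the KO libraries and 1.14 and 1.13 in the KD libraries (fall of 0.28, SE 0.020, limma adjusted p = 0.00786). Chromosomes 20 and 22 had 1.10 and 1.07 against 1.31 and 1.32 (fall of 0.28, limma adjusted p = 0.0123). Both KO libraries lay below both KD libraries in each of these pairs. In recovered contacts 7 of the 10 were lower (median -0.29), and with trans totals 7 as well (median -0.16). Of the 45 pairs within chromosomes 13 to 22, 18 were called lower and 0 higher (median -0.14), and in recovered contacts 22 were lower and 1 higher. Chromosomes 13 and 19 had 0.895 and 0.895 against 1.09 and 1.08 (fall of 0.28, limma adjusted p = 0.00786), with 0.947 in the control. This pair holds a bin pair with high signal in every library, chr13:46000001-47000000 with chr19:40000001-41000000. It was at 142 and 102 times the trans mean in the KO and 105 and 94.6 times in the KD. Among the 10 acrocentric pairs 1, chromosomes 14 and 15, was called lower (median -0.12). In recovered contacts 3 of these were lower and 1 higher.

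The pairs called higher all held chromosome 19, which is the most gene-dense, with a large chromosome. Chromosomes 2 and 19 had 0.441 and 0.444 in the KO libraries and 0.387 and 0.389 in the KD libraries, a rise of 0.19 (SE 0.019, limma adjusted p = 0.0126). Chromosomes 6 and 19 rose by 0.16, chromosomes 4 and 19 by 0.14 and chromosomes 5 and 19 by 0.14 (limma adjusted p = 0.0432 for the last). All 12 pairs of chromosome 19 with chromosomes 1 to 12 had a positive difference (median 0.12), and 11 did not overlap. In recovered contacts none of the 12 was called, with a median of 0.05, and 5 did not overlap. Chromosome 19 also had the higher share of recovered contacts given above, and the part of yield in its rises was not tested. Of small gene-rich chromosomes with chromosomes 1 to 5, 25 pairs had 3 calls higher and 0 lower (median 0.04), and in recovered contacts 0 higher and 1 lower (median -0.01). The 10 pairs within the large chromosomes had 1 call lower, chromosomes 3 and 4 (median -0.08), and in recovered contacts 0 calls (median 0.01). The 66 pairs within chromosomes 1 to 12 had 2 calls lower, and 62 of them lay below in both KO libraries (median -0.07). In recovered contacts 12 lay below and 7 above (median -0.01), with 1 call. The control did not always lie between the groups in the balanced signal. For chromosomes 1 and 2 it was 0.387, below the KO (0.400 and 0.402) and the KD (0.403 and 0.406). For chromosomes 3 and 4 it was 0.523, between the KO (0.506 and 0.496) and the KD (0.551 and 0.550).

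**Figure D5:**
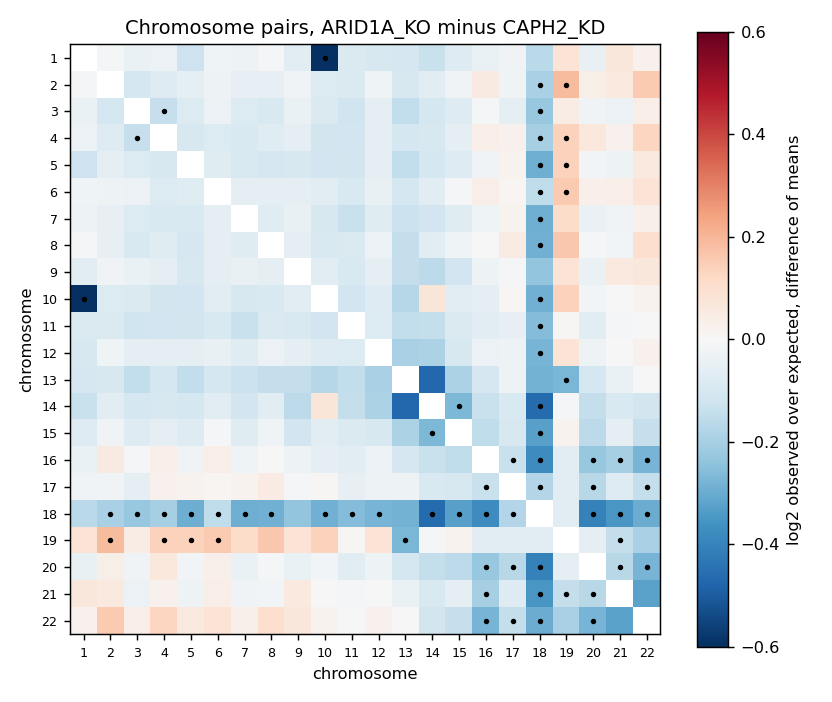
Difference of ARID1A KO minus CAPH2 KD in log2 observed over expected signal for each pair of the 22 chromosomes (colour scale from -0.6 to 0.6), with black points on pairs called by limma at an adjusted p under 0.05. The darkest cell is the pair of chromosomes 1 and 10, chromosome 18 forms a blue line, and chromosome 19 is red with the larger chromosomes and blue with chromosomes 13, 21 and 22.

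Counts of pairs rested on the libraries and the scale. They were 190 without KO library 1 (57 higher), 212 without KO library 2 (20 higher), 4 without KD library 1 and 5 without KD library 2. With trans totals 11 pairs were higher and 13 lower, and with each library centred on its median 22 were higher and 38 lower. Without chromosome 18 the count was 10. Without the 9 chromosomes that hold a window of unequal yield between the KO libraries or are chromosome 18, a comparison added after the values were seen, it was 2.

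The pair with the largest fall was that of chromosomes 1 and 10. Its observed over expected value was 0.398 and 0.423 in the KO libraries, 0.622 and 0.619 in the KD libraries and 0.583 in the control. The KD libraries resembled the control, and the KO libraries lay far below all 3 (fall of 0.60 in log2, SE 0.037, limma adjusted p = 0.00786). In recovered contacts the fall was 0.61.

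This pair holds the only strong trans bin pairs found in 1 group alone. A bin pair was called strong in a group at 20 or more times the mean trans signal in both of its libraries, and specific to it if both libraries of the other group were under 5 times. Strong bin pairs within 3 bins of each other were joined into 1 site. The KO had 203 strong bin pairs at 52 sites and the KD 204 at 61 sites. Of these, 161 were strong in both groups, which is 79.3% of the KO list and 78.9% of the KD list, and 93.1% and 95.6% of the lists were strong in the control too. None was specific to the KO, and 3, at 2 sites, were specific to the KD.

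The first site joined chr1:22000001-23000000 with chr10:78000001-79000000 (hg19). Its signal was 74.6 and 70.4 times the trans mean in the KD libraries and 98.4 times for the control, against 1.97 and 0.667 times in the KO libraries. These values rest on 364 and 541.5 recovered contacts in the KD, 408.5 for the control and 5 and 2 in the KO. The second site joined chr1:25000001-26000000 with chr10:113000001-114000000, at 51.2 and 43.8 times the mean in the KD and 49.99 times for the control, against 0.572 and 0 times in the KO. There the recovered contacts were 254 and 326 in the KD, 205 for the control and 1 and 0 in the KO. The strong signal at both sites was thus found in the control and both KD libraries, and no KO library went above 1.97 times the trans mean. A recovered value midway between whole numbers was kept as it came out.

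The difference reached beyond the sites. At 3 to 10 Mb from a site the mean signal was 1.09 and 1.26 times the trans mean in the KO libraries and 1.91 and 1.92 times in the KD libraries. At 11 to 20 Mb it was 1.02 and 1.16 times against 1.74 and 1.73 times, and at 21 to 40 Mb 0.924 and 0.985 times against 1.64 and 1.61 times. Beyond 40 Mb it was 0.873 and 0.864 times against 1.19 and 1.19 times. Within 2 Mb, a class that holds the bin pairs by which the sites were chosen, it was 1.00 and 0.991 times against 5.81 and 5.20 times. The control was at 6.59 times there. The KD was thus highest next to the sites and declined with distance. The KO was not raised next to the sites and declined only from 3 to 10 Mb outward. The KO libraries lay below the KD libraries in each class. Without bin pairs within 5 bins of any strong pair the difference of this chromosome pair was -0.59 and was called. Yield differed in some of these windows. From 20 to 30 Mb on chromosome 1, recovered contacts were 0.34 and 0.78 (log2) above the KD mean in KO libraries 1 and 2, and from 110 to 120 Mb on chromosome 10 they were -0.21 and 0.28, with opposite signs although neither KO library had the site there. From 70 to 80 Mb on chromosome 10, the window of the first site, they were 0.10 and 0.06. The part of yield in the difference was not tested.

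At 3 other sites that were strong in the KD and the control, KO library 1 alone had almost no signal. They are named here after their values were seen. The site chr1:26000001-27000000 with chr5:55000001-56000000 was at 3.19 times the trans mean in KO library 1, 119 times in KO library 2 and 119.7 and 123 times in the KD libraries. The site chr11:116000001-117000000 with chr20:8000001-9000000 was at 0.608 times in KO library 1, 335 times in KO library 2 and 142 and 138 times in the KD libraries. The site chr13:110000001-111000000 with chr14:74000001-75000000 was at 2.09 and 87.7 times in the KO and 89.3 and 87.4 times in the KD. Each of them lies in or next to a stretch where the KO libraries differed in yield, and KO library 2 had the site in every case. The chromosome pair of 13 and 14 followed this split, with a log2 observed over expected of -1.14 in KO library 1 and -0.38 in KO library 2 against -0.29 and -0.29 in the KD, and it did not pass (limma adjusted p = 0.268).

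Single bins gave no call in either direction. For the local ratio, log2 of the mean signal at 1 to 3 Mb over that at 4 to 20 Mb, 0 of 2627 bins passed (0%; limma) and 345 had an unadjusted p under 0.05. Both KO libraries lay below both KD libraries in 32.8% of bins and above both in 15.6%. Of the 117 subtelomeric bins (the 3 outermost measured bins of an arm), 58 were lower in both KO libraries (49.6%) and 8 higher, with a median of -0.17 beside -0.04 over all bins. In recovered contacts 36 were lower and 16 higher, with a median of -0.08. Pericentromeric bins leaned the other way, with 14 of 110 lower, 38 higher and a median of 0.06. The leading 3 bins by p-value did not pass (limma adjusted p = 0.317) and were chr20:62000001-63000000, chr9:34000001-35000000 and chr2:242000001-243000000, with differences of -0.67, -0.55 and -0.49. At the first, near the end of chromosome 20, the log2 ratio was 3.68 and 3.74 in the KO libraries and 4.36 and 4.42 in the KD libraries. Without KO library 1 1385 bins passed, without KO library 2 1762, and without either KD library 0.

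For the trans share of bins, 0 of 2635 passed (0%; limma, lowest adjusted p = 0.0725) and 841 had an unadjusted p under 0.05. Both KO libraries lay below both KD libraries in 64.8% of bins and above both in 3.49%. On chromosome 18 this was 73 of 74 bins (median -0.43), and on chromosome 19 it was 4 of 53, with 28 higher (median 0.12). Bins of compartment B were lower in both KO libraries in 79.2% of 1418 bins and bins of compartment A in 48.1% of 1217. In recovered contacts the medians of B and A were -0.08 and -0.12, so their order turned, and on chromosomes 18 and 19 the medians were -0.08 and -0.17. The leading 3 bins by p-value were chr18:27000001-28000000, chr18:24000001-25000000 and chr10:83000001-84000000, lower by 0.53, 0.52 and 0.54. Without KO library 1 1875 bins passed, without KO library 2 2330, and without either KD library 0. In simulated data with the pooled spread of each group, 86 of 100 bins shifted by 1 (log2) were called and 8 of 100 shifted by 0.3. Smaller shifts were thus mostly not detectable at that spread. For the local ratio these were 90 of 100 and 5 of 100.

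The signal between pericentromeric bins of different chromosomes was 1.55 and 2.01 times the trans mean in the KO libraries, 2.05 and 2.03 times in the KD libraries and 1.77 times in the control. Both KO libraries were below the KD, and KO library 2 was nearly level with it. Between subtelomeric bins the groups overlapped, with 2.69 and 2.37 times in the KO against 2.59 and 2.57 times in the KD. In recovered contacts the pericentromeric values were 0.954 and 1.20 times in the KO against 1.21 and 1.21 times in the KD, and the subtelomeric values were 2.38 and 2.07 times against 1.62 and 1.64 times, so the KO was higher there. Contacts of pericentromeric with subtelomeric bins were higher in the KO, at 1.09 and 1.14 times against 1.04 and 1.05 times. In recovered contacts these were below the trans mean in every library, at 0.849 and 0.874 times in the KO against 0.680 and 0.694 times in the KD.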

How the data were processed

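The authors deposited 1 symmetric matrix of balanced contact signal per library at 1 Mb; the submitters' processing notes name Bowtie2 and hg19. No source used here gives versions, filters or the balancing program. Row sums lay within 1% of the median in every library. Bins under 0.25 of the control's median recovered total were left out (32). Dividing each balanced value by factors of its 2 bins, read from the smallest steps between chromosomes, returned contacts, and 99.98% to 99.9998% of values came out whole or midway (within 0.05).

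Tests were limma 3.58.1 (R 4.3.3) on 2 against 2 libraries, with Benjamini-Hochberg adjustment over each of 8 families, and were tested on simulated data. There 23 of 29 pairs changed by 0.3 (log2) and 12 of 18 distance classes were called, with 5 unchanged pairs and 5 unchanged distance classes called as well; for arms 1 of 2 was called and 1 unchanged chromosome. Other steps used Python 3.11.15 and numpy 2.4.6. The features named were up to 8 called per direction, or the 3 smallest p. Members and lists were chosen with earlier results of these data known. No genome of this build was used, so no sequences are given.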

Additional observations from a re-analysis of the deposited data

How the results depend on the processing

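Thinning to the depth of the smallest library and keeping dim bins left every count of calls within 1.5 times. Recovered contacts gave 0 calls for trans share by chromosome, 0 for distance classes, 10 for between-arm contacts and 284 for the eigenvector, and differences of -0.060 percentage points for the trans percent, -0.13 for the share at 100 Mb and over, -0.15 for compartment strength between chromosomes and 0.60 for subtelomeric contacts. Keeping the same bin gave 21 calls (trans share by chromosome), 170 (pairs), 2 (distance) and 1778 (trans share of bins). Array weights by group gave 57 pairs, 31 distance classes, 31 bins by local ratio and 281 by trans share. Centring gave 2 chromosomes and 60 pairs. Leaving out chromosome 18 gave 10 pairs, and leaving out the 9 chromosomes of unequal yield gave 2. Leaving out the class under 2 Mb gave 48 distance classes, and matched distance gave 11 chromosomes (9 in recovered contacts). At 10 times the trans mean 4 sites were specific to the KO and 8 to the KD.

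Leaving out 1 library gave 0 to 22 calls for trans share by chromosome, 4 to 212 for pairs, 3 to 123 for distance classes, 5 to 17 for between-arm contacts, 0 to 1762 for the local ratio, 0 to 2330 for trans share of bins, 0 to 1385 for the eigenvector and 5 to 21 for compartment strength. The subtelomeric difference ran from -0.21 to 0.11 (0.11 without KO library 2).

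With the replicate block the counts were 3, 27, 20, 15, 44, 0, 0 and 19 in the order trans share by chromosome, pairs, distance, arms, local ratio, trans share of bins, eigenvector and strength; the local ratio alone moved by over 1.5 times. Deviations of same-numbered libraries correlated between -0.43 and 0.16. With 2 libraries per group this cannot show whether same-numbered libraries share more than the number. Crossed numbers, tried after the data were seen because deviations in distance and arms correlated below -0.1, gave 3, 0, 21, 17, 41, 249, 0 and 11 in the same order, so no pair was called.

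Of 573 values of the 49 named features under alternatives, 433 kept direction and side of the threshold, 99 lost it, 32 gained it and 9 turned: in recovered contacts chromosomes 18 and 13 (trans share, 0.0054 and 0.049) and chromosome 12 at 100 Mb and over (0.10); centred, chromosome 10 (0.026); with trans totals, chromosomes 10 and 18 (0.015); at matched distance, the arms of chromosome 2 (0.0004), and in recovered contacts those of chromosomes 11, 10 and 2 (0.061, 0.0009 and 0.040). The cause was not tested. Depth was lowest in the KO libraries.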
